A study of Mus musculus with 10 samples.

Results

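The 6 genes described here, Saa3, Lcn2, Hp, Cp, Steap4 and Il13ra2, were taken by symbol from a table of read counts for 55486 mouse genes. They encode acute-phase proteins and proteins linked to them by iron handling or by cytokine signalling. They were picked because earlier results from these same libraries had shown them higher in CD26+ than in CD26- mammary fibroblasts, so that difference is given below as a description and was not tested. All 6 passed the filter on low counts in every comparison. Levels are in CPM, which are read counts scaled to a common library total.

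Normal fibroblasts (NFs) came from the mammary glands of mTmG mice aged 8 weeks, on an FVB/n background per the study's methods. Cells of these mice make red Tomato until Cre recombinase switches them to green GFP. NFs were sorted by CD26, a cell-surface peptidase encoded by Dpp4, and kept in 2D culture for a week, during which CD26+ NFs, but not CD26- NFs, received adeno-Cre. Exposure to the virus and the subset can therefore not be told apart. Equal parts of both subsets were then grown in collagen/BME gels (BME, basement membrane extract) for 7 days. Gel 1 held CD26- and CD26+ NFs without tumor cells, and gels 4 and 5 held both subsets with tumor cells of line 13-MCB-17 and line 10-SJK-221, respectively. Gels 2 and 3 held these lines, in that order, without NFs. The lines came from end-stage mammary tumors of mice that develop invasive lobular carcinoma. In these mice Cre, driven by the promoter of the milk protein gene Wap, deletes Cdh1 in mammary epithelium. After collagenase digestion the gels were sorted by colour, with red cells taken as CD26- NFs, green cells as CD26+ NFs and colourless cells as tumor cells, giving 10 libraries in 6 groups. Groups of NFs alone have 1 library and the other groups have 2, and gel and tumor line cannot be told apart within the co-cultures. The labels do not say that gels were seeded from separate sorts, so p-values measure the spread between these libraries, which may be technical.

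Libraries held 14142334 to 18408940 counts. The 8 fibroblast markers were all detected in every NF library, with a summed level of 23317 to 74846 CPM, and the 10 epithelial markers were all detected in every tumor library, at 4233 to 5577 CPM. Dpp4 itself was close to the detection limit in CD26+ NFs, at 0.281, 0.771 and 0.283 CPM in gels 1, 4 and 5, and was at 0, 0 and 0.0575 CPM in CD26- NFs, so the subset name refers to the sort before culture. The epithelial markers summed to 0.807 and 1.12 CPM in NFs alone but to 121 to 327 CPM in co-cultured NFs, with 0 of the 10 markers undetected there. The 9 leukocyte markers summed to 6.88 to 15.5 CPM in the NF libraries, where Adgre1, C1qb and Tyrobp had no count at all. Within that list Csf1r was at 1.86 and 2.81 CPM alone and 7.42 to 13.5 CPM in co-culture, and Lyz2 at 6.02 and 4.07 CPM alone and 0.173 to 0.964 CPM in co-culture. The 5 endothelial markers summed to 9.76, 24.5 and 14.9 CPM in the CD26+ libraries of gels 1, 4 and 5 and to 4.35, 10.2 and 8.06 CPM in the CD26- libraries, so this sum was higher in CD26+ NFs and in co-culture, and its part in the results was not tested. The 6 adipocyte markers summed to 29.2 and 40.9 CPM in NFs alone and to between 5.12 and 11.8 CPM in co-cultured NFs, a difference that lay mostly in Pparg (23.2 and 25.9 CPM alone, 0.727 to 3.11 CPM in co-culture). Adipoq was at 0.497 and 2.53 CPM alone and at 0.283 to 0.727 CPM in co-culture. In bulk libraries, fewer cells with a transcript and less transcript per cell cannot be told apart.

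The acute-phase response is a programme in which inflammatory cytokines of the interleukin-1 and interleukin-6 families raise a set of secreted proteins, chiefly through NF-kB, STAT3 and C/EBP transcription factors. The liver is its main site, but fibroblasts, fat cells and epithelium make several of these proteins locally. Saa3 encodes serum amyloid A3, a lipid-binding apolipoprotein made mostly outside the liver. Lcn2 encodes lipocalin 2, which binds bacterial siderophores and so withholds iron, Hp encodes haptoglobin, which binds free haemoglobin, and Cp encodes ceruloplasmin, a copper-carrying ferroxidase. Steap4 encodes a membrane metalloreductase that reduces iron and copper, and Il13ra2 encodes a receptor that binds interleukin-13 tightly and is widely described as a decoy.

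Among these genes Saa3 was the most abundant in CD26+ NFs. Saa3 (ENSMUSG00000040026, chr7:46711998-46715700, minus strand, GRCm38) was at 407, 530 and 596 CPM in the CD26+ libraries of gels 1, 4 and 5 and at 44.4, 30.7 and 24.3 CPM in the CD26- libraries of the same gels. The 3 CD26+ libraries lay above all CD26- and tumor libraries, and in co-culture Saa3 ranked within the top 0.93% of detected genes of the CD26+ libraries. The fold between subsets was 9.16 (95% interval 8.47 to 9.91) in gel 1, 17.3 (15.8 to 19.0) in gel 4 and 24.5 (22.3 to 27.1) in gel 5. These exact binomial intervals reflect the number of reads and no other source of error, and without molecular identifiers several reads can stem from 1 molecule. The ratio was wider in each co-culture gel than in the gel of NFs alone.

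Lcn2 (ENSMUSG00000026822, chr2:32384633-32388252, minus strand) was low in NFs grown alone, at 7.16 CPM in CD26+ and 0.497 CPM (8 counts) in CD26- NFs. In gels 4 and 5 it was at 173 and 140 CPM in CD26+ and at 21.2 and 16.5 CPM in CD26- NFs. The fold between subsets was 14.4 in gel 1, with a wide interval of 7.04 to 34.3, 8.16 in gel 4 and 8.47 in gel 5. Tumor cells held more Lcn2 than any NF library, at 436 to 661 CPM.

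Hp (ENSMUSG00000031722, chr8:109575128-109579172, minus strand) was at 42.7, 7.26 and 7.14 CPM in the CD26+ libraries of gels 1, 4 and 5, against 4.22, 0.424 and 1.21 CPM in CD26- NFs. The gel 4 value of CD26- NFs rests on 7 counts, so the subset fold of 17.1 in that gel had an interval of 8.04 to 43.5, while it was 10.1 in gel 1 and 5.91 in gel 5. Il13ra2 (ENSMUSG00000031289, chrX:147383476-147429192, minus strand) was at 29.9, 14.5 and 13.5 CPM in CD26+ and at 4.66, 1.58 and 1.32 CPM in CD26- NFs. Its subset folds of 6.42, 9.17 and 10.2 varied least between gels, with an SD of 0.35 on the log2 scale (n = 3 gels).

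The metal-handling genes differed less between subsets in NFs alone than in co-culture. Cp (ENSMUSG00000003617, chr3:19957054-20009145, plus strand) was at 131, 156 and 149 CPM in CD26+ NFs and at 63.4, 20.3 and 24.4 CPM in CD26- NFs. Its subset fold was 2.06 (1.91 to 2.23) in gel 1, 7.67 (6.84 to 8.62) in gel 4 and 6.10 (5.49 to 6.79) in gel 5. Of its exon bases, 1.13% overlap Hps3. Steap4 (ENSMUSG00000012428, chr5:7960457-7982213, plus strand) was at 143, 22.3 and 31.0 CPM in CD26+ and at 45.1, 2.06 and 2.76 CPM in CD26- NFs, which are folds of 3.16 (2.90 to 3.45), 10.8 (7.60 to 15.9) and 11.2 (8.31 to 15.4).

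Every CD26+ library was higher than the CD26- library of its gel for all 6 genes, by over 2-fold, which the choice of genes fixes. Among the 13346 genes with a mean of at least 1 CPM over the NF libraries, 37.7% were higher in CD26+ NFs in all 3 gels and 1.29% were so by over 2-fold in each. Ranked by the smallest of the 3 gel ratios, Saa3 stood at place 2, Lcn2 at 3, Il13ra2 at 6, Hp at 10, Steap4 at 31 and Cp at 155. Across all genes, 7.53% passed the test of CD26+ against CD26- NFs in either direction. That count rested on gel 5, with 1130 genes called over all gels and 17 without it.

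**Figure D1:**
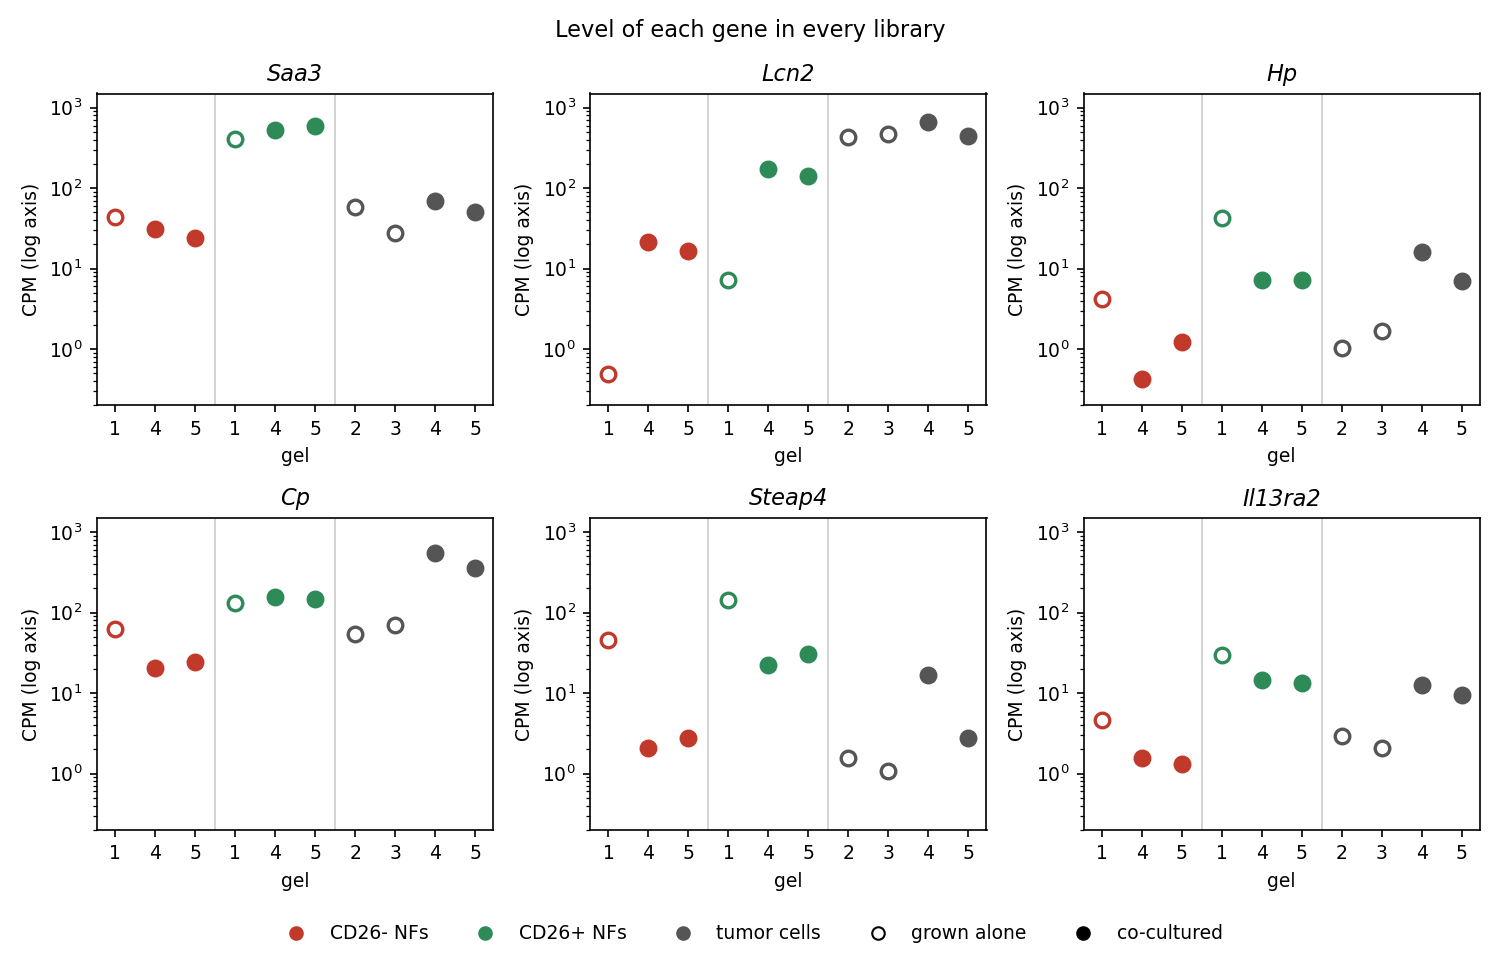
CPM on a log axis (vertical) of each gene in the 10 libraries, labelled by gel (horizontal), with red for CD26- NFs, green for CD26+ NFs and grey for tumor cells. Open points are cells grown alone and filled points are co-cultures. Lcn2 lay higher in filled than in open NF points, Steap4 lay lower, and Cp in tumor cells went from 54.8 and 70.6 CPM alone to 554 and 354 CPM in co-culture.

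**Figure D2:**
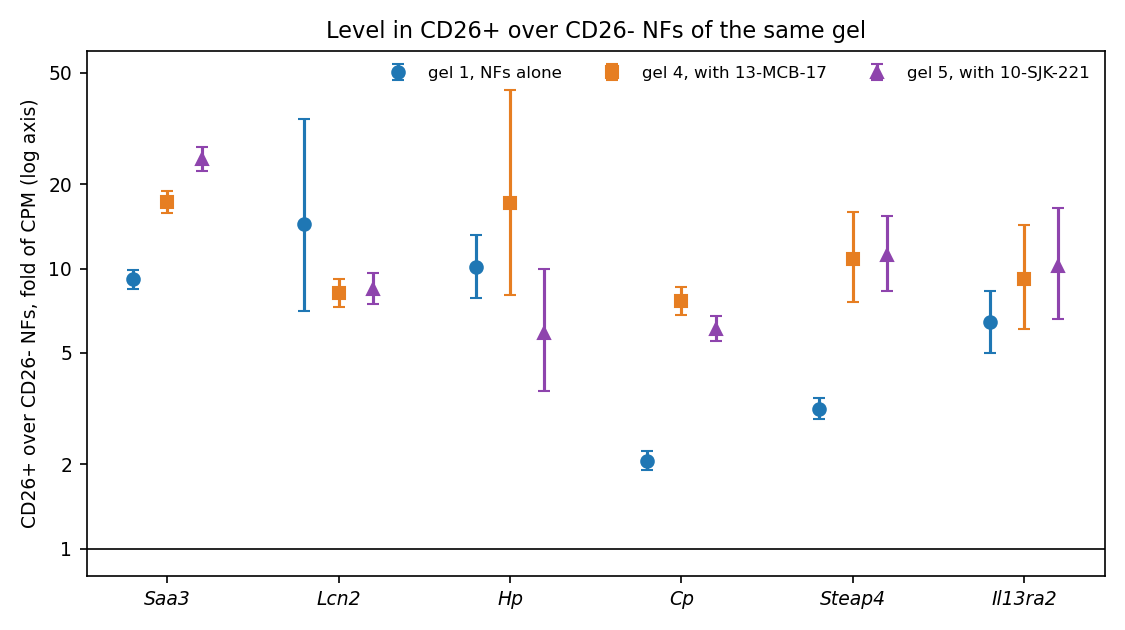
Fold of CPM in CD26+ over CD26- NFs of the same gel (log axis) for each gene, with exact 95% binomial intervals for counting error. Circles are gel 1, squares gel 4 and triangles gel 5, and the line marks equal levels. Cp had the smallest fold, 2.06 in gel 1, and Saa3 the largest, 24.5 in gel 5.

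The sequence just upstream of these genes was searched for the letters that the factors of the response bind. RefSeq promoter sequences (GRCm38.p6) were found for 5 of the 6 genes. Both strands of the 250 bases before each annotated start were searched for a 10-base kB motif of NF-kB, whose matches are the 10-base runs of capitals in Steap4, and for TTNNGNAA (C/EBP), TTCNNNGAA (STAT) and the box motif TATAAA. The sequences shown here were cut where a GENCODE transcript of the gene begins, and run 5' to 3' on the strand of the gene. Capitals mark every match to any of the 4 motifs. They are shown because Steap4 and Il13ra2 fell with co-culture in both subsets while Saa3 and Cp did not pass the test in CD26+ NFs, as given further on.
Saa3 promoter (chr7:46715701-46715926, minus strand): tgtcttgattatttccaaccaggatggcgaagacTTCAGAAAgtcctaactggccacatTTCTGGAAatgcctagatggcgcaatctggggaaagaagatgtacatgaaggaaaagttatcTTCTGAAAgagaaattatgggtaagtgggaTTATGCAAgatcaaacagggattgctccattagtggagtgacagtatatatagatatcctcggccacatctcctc
Cp promoter (chr3:19956804-19957053, plus strand): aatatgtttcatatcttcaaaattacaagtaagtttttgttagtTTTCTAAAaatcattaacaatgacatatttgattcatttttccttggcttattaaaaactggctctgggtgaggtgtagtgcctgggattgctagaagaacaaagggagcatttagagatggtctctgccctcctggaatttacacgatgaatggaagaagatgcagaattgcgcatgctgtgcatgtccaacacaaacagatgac
Steap4 promoter (chr5:7960222-7960456, plus strand): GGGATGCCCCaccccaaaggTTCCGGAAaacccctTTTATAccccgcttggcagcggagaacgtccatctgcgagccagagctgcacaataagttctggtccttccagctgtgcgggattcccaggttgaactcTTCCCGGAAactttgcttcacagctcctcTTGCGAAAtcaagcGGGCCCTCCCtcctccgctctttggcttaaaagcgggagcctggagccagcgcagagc
Il13ra2 promoter (chrX:147429193-147429442, minus strand): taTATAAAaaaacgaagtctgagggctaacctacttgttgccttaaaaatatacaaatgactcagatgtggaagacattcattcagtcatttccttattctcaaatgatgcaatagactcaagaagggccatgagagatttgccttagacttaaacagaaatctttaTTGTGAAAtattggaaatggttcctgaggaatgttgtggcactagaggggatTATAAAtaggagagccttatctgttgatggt

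C/EBP letters occurred before each of the 5 genes, at 4 places in Saa3 and 2 places in Steap4, and 36.8% of all 32851 promoters of this length hold at least 1. STAT letters were found before Steap4, 108 to 116 bases before the start, against 7.02% of promoters. The Steap4 window held kB letters at 2 places, 241 to 250 and 64 to 73 bases before the start, against 17.6% of promoters with any. TATAAA, in 12.4% of promoters, was found before Steap4 and at 2 places before Il13ra2, 1 of them 26 to 31 bases before the start. The sequence shown for Cp held only the C/EBP match, while the window of a second annotated start of Cp, most of it exonic and not shown, also held kB and TATAAA letters. The Lcn2 window held 1 C/EBP match. It is not shown because 197 of its 250 bases lie in exons of other annotated Lcn2 transcripts. A match is a run of letters and not a measured binding site.

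Comparing NFs grown with tumor cells with NFs grown alone asks how the neighbouring carcinoma cells change each subset. In this comparison the genes split. Lcn2 rose, Hp, Steap4 and Il13ra2 fell, and Saa3 and Cp did not pass the test. Over both subsets, 1 of 6 was called higher, where 25.9% of all genes were, and 3 of 6 were called lower, where 22.9% were (edgeR quasi-likelihood test, adjusted p under 0.05). A share of 22.9 to 25.9% in each direction means that many genes moved with co-culture, which here is 2 gels against 1.

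Lcn2 rose by 4.66 ± 0.23 (log2 fold change ± SE, 25.2-fold, adjusted p = 7.89e-07). In the tests within a subset and of the difference between subsets, the arm grown alone is 1 library, which is assumed to vary like the co-cultured libraries, and the error comes from the 2 co-culture gels. Within CD26+ NFs the change was 4.49 ± 0.29 and within CD26- NFs 5.29 ± 0.39, with adjusted p = 1.03e-07 and 3.02e-07. The co-cultured libraries of each subset did not overlap with the library grown alone, which is only 2 values against 1. Both co-culture gels gave a like fold, 24.2 and 19.5 in CD26+ NFs and 42.7 and 33.2 in CD26- NFs. In CD26- NFs 84.1% and 75.3% of the co-culture level would be RNA carried from tumor cells by the estimate given further on, and with it subtracted the change there was 3.01 in place of 5.29.

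The other scavenger, Hp, went the opposite way. It fell by 2.44 ± 0.27 on the log2 scale (adjusted p = 7.29e-05), from 42.7 CPM to 7.26 and 7.14 CPM in CD26+ NFs. The log2 fold change was -2.53 ± 0.31 within the CD26+ subset (adjusted p = 4.00e-05) and -2.28 ± 0.43 within the CD26- subset (0.00130). The decoy receptor Il13ra2 fell by 1.29 ± 0.20 (adjusted p = 0.000627), with -1.06 ± 0.25 in CD26+ and -1.62 ± 0.32 in CD26- NFs. Il13ra2 and Hp lay lower in every co-cultured library than in the library of the same subset grown alone, as 2 values against 1 in each subset.

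Steap4 had the largest fall over both subsets and in CD26- NFs, while in CD26+ NFs Hp fell slightly more. Its log2 fold change was -3.21 ± 0.33 over both subsets (adjusted p = 4.56e-05), and -2.38 ± 0.24 in CD26+ against -4.15 ± 0.28 in CD26- NFs. In CD26- NFs the fall, 17.8-fold, took the transcript from 45.1 CPM to 2.06 and 2.76 CPM.

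Saa3 and Cp were called within the CD26- subset but not within the CD26+ subset. Saa3 in CD26+ NFs was 407 CPM alone and 530 and 596 CPM in co-culture, a log2 difference of 0.51 ± 0.22 that did not pass (adjusted p = 0.0866). In CD26- NFs it fell by 0.63 ± 0.22 (adjusted p = 0.0424), from 44.4 to 30.7 and 24.3 CPM, a call that was lost with no filter on low counts (adjusted p = 0.0793). Cp in CD26+ NFs differed by 0.26 ± 0.21 (adjusted p = 0.370), while in CD26- NFs it fell by 1.43 ± 0.21 (adjusted p = 0.000158), from 63.4 to 20.3 and 24.4 CPM. In CD26- NFs 1 of 6 genes was called higher, where 16.6% of all genes were, and 5 of 6 lower, where 14.1% were. In CD26+ NFs these counts were 1 of 6, where 19% of all genes were called higher, and 3 of 6, where 15.2% were called lower. These within-subset tests share the libraries in which the subset difference had been seen.

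**Figure D3:**
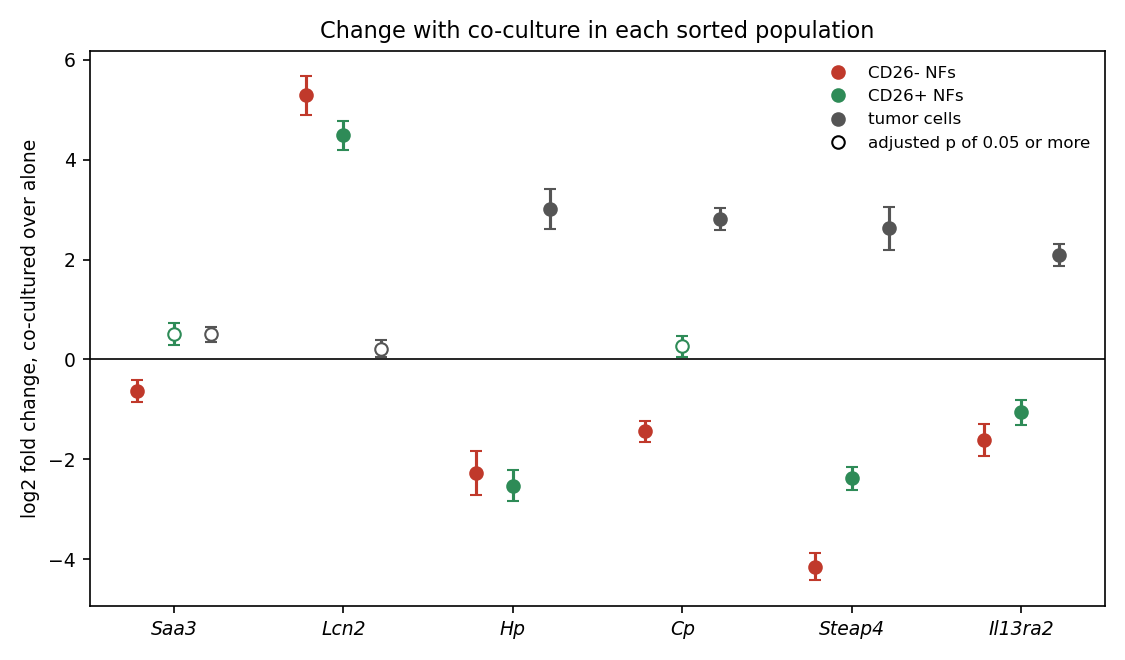
Log2 fold change of co-cultured over lone cells (vertical, ± SE from the edgeR fit) for each gene in CD26- NFs (red), CD26+ NFs (green) and tumor cells (grey). Open points did not pass an adjusted p of 0.05. Hp, Steap4 and Il13ra2 lay below 0 in both NF subsets and above 0 in tumor cells, and Cp lay at -1.43 in CD26- NFs, 0.26 in CD26+ NFs and 2.81 in tumor cells.

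Whether the response to co-culture differed between the subsets was tested, with 1 library in each lone arm, as the CD26+ response minus the CD26- response. This difference is made of the subset ratios of the same libraries in which the 6 genes had been picked as high in CD26+ NFs. For these genes its p-values are therefore not independent of that choice. For Cp the difference was 1.69 ± 0.31 (log2, adjusted p = 0.0340), which was the only call among the 6 genes. Across all genes 0.364% were called in this comparison. The values were 1.77 ± 0.38 for Steap4 (adjusted p = 0.0793), 1.14 ± 0.31 for Saa3 (0.189), 0.56 ± 0.41 for Il13ra2 (0.874), -0.25 ± 0.58 for Hp (0.996) and -0.80 ± 0.53 for Lcn2 (0.831). Both subsets of a gel grew together, and with the gel as a block in a paired fit, Cp (adjusted p = 1.10e-05), Steap4 (2.39e-05) and Saa3 (0.0122) all passed, along with 395 genes in all in place of 59. The paired fit sets the subset ratios of the 2 co-culture gels against that of 1 lone gel. Its error rests on how far these 2 co-culture ratios differ. The deviations between the co-culture gels correlated at only 0.0881 between CD26- and CD26+ NFs, so the subsets shared little of them. The smaller p-values and the higher count of the paired fit were therefore not taken as stronger evidence. With DESeq2, Cp and Steap4 passed. The Cp call was lost with no filter on low counts (adjusted p = 0.121) and with a filter at 1 CPM in 2 libraries (0.0506).

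Epithelial transcripts in co-cultured NF libraries bear on Lcn2 and Cp, which tumor cells hold at high level. The tumor share of the RNA was estimated from the summed epithelial markers. The sum in an NF library, less that of the same subset grown alone, was divided by the sum in the tumor library of the same gel. This gave 2.70% and 2.84% in CD26- NFs of gels 4 and 5, and 3.99% and 6.28% in CD26+ NFs. At these shares, tumor RNA would carry 17.8 of the 21.2 CPM of Lcn2 in CD26- NFs of gel 4, and 12.4 of the 16.5 CPM in gel 5. In CD26+ NFs it would carry 26.4 of 173 CPM and 27.5 of 140 CPM, or 15.2% and 19.7%. For Cp in CD26- NFs the carried level was 14.9 of 20.3 CPM and 10.0 of 24.4 CPM, and in CD26+ NFs it was 14.2% and 14.9% of the level. Saa3, at 0.515% to 6.02% carried, was little touched in either subset. The 0.424 CPM of Hp in CD26- NFs of gel 4 were no more than the 0.436 CPM that would be carried. The estimate assumes that carried RNA has the profile of the sorted tumor cells, and it can be too high, since for Il1a in CD26+ NFs of gel 5 it came to 127% of the measured level. Its markers also disagreed. In CD26- NFs of gel 4 Krt19 was at 45.0 CPM against 460 CPM in tumor cells, and Epcam at 6.42 against 335 CPM. The shares thus depend on which markers are summed.

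With the estimated tumor RNA subtracted, an alternative chosen after seeing the data, Lcn2 still rose in CD26- NFs, by 3.01 in place of 5.29 on the log2 scale (adjusted p = 0.000377), and in CD26+ NFs by 4.26 (adjusted p = 2.13e-06). The log2 fold change of Cp in CD26- NFs became -2.55 (adjusted p = 0.000634), and the difference between subsets in its response became 2.64 but was no longer called (adjusted p = 0.146). The fall of Saa3 in CD26- NFs was no longer called either, at a log2 fold change of -0.67 in place of -0.63. The subset difference of Lcn2 over the 3 gels widened from 2.99 to 4.83 on the log2 scale.

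**Figure D4:**
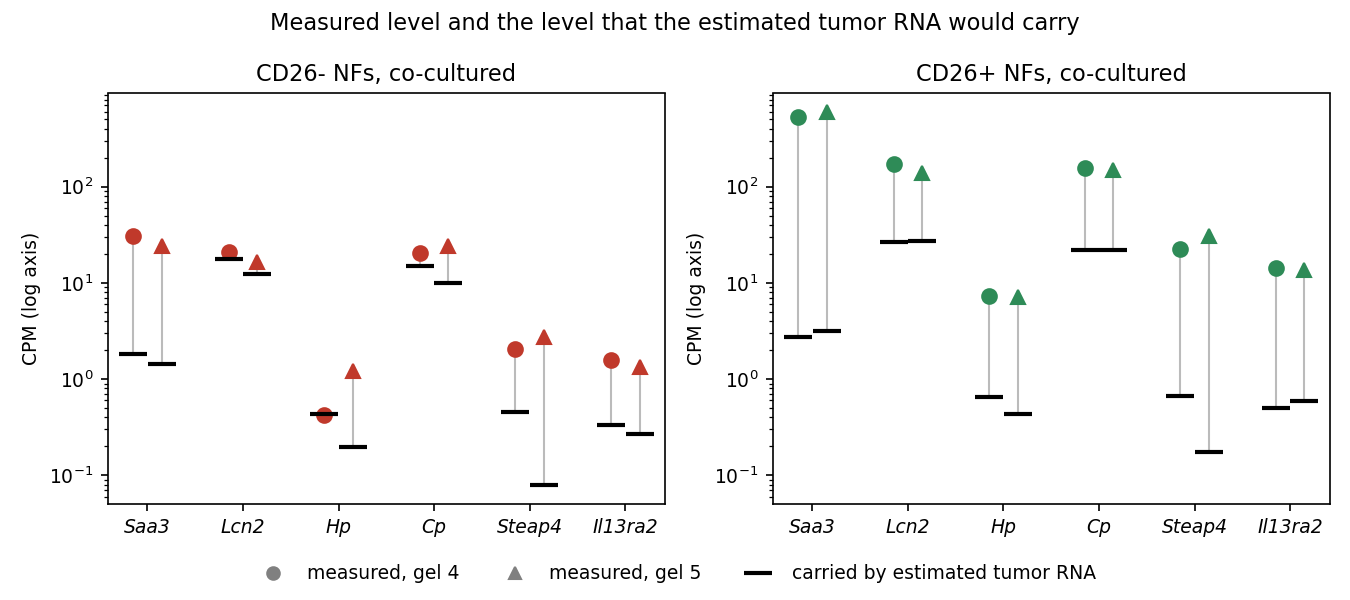
Measured CPM (log axis) of each gene in co-cultured CD26- NFs (left) and CD26+ NFs (right), with circles for gel 4, triangles for gel 5 and a black bar for the level that the estimated tumor RNA would carry. The bars nearly reach the points for Lcn2 in CD26- NFs, 17.8 of 21.2 CPM and 12.4 of 16.5 CPM, and stay far below them for Saa3.

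Gels 4 and 5 held different tumor lines. Their comparison is 1 gel against 1, with the subsets of a gel standing in for replicates although they are not independent gels. A lack of calls is therefore not a sign that the lines act alike. In co-cultured NFs of gel 5 against gel 4, 0 of 6 genes were called by edgeR, where 2.11% of all genes were, and 0 by DESeq2. At an unadjusted p under 0.05 there was 1, Steap4, with a log2 difference of 0.51 ± 0.22 (adjusted p = 0.284). The share of all genes at that unadjusted threshold was not counted.

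In the tumor cells, Hp, Cp, Steap4 and Il13ra2 rose with co-culture, and Saa3 and Lcn2 did not pass the test. Hp rose with NFs present from 1.03 and 1.65 CPM (lines 13-MCB-17 and 10-SJK-221 alone) to 16.2 and 6.96 CPM, a log2 fold change of 3.01 ± 0.40 (adjusted p = 0.00147). Cp rose from 54.8 and 70.6 CPM to 554 and 354 CPM (2.81 ± 0.21, adjusted p = 0.000130). The co-cultured tumor cells thus held more Cp than any NF library.

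Steap4 rose from 1.58 and 1.08 CPM to 16.9 and 2.79 CPM (2.62 ± 0.44, adjusted p = 0.00392), unevenly between lines, by 10.7-fold (7.30 to 16.3) in 13-MCB-17 and 2.58-fold (1.46 to 4.79) in 10-SJK-221. Il13ra2 rose from 2.93 and 2.10 CPM to 12.5 and 9.41 CPM (2.09 ± 0.22, adjusted p = 0.000559), which is 4.26-fold and 4.48-fold in these lines. In each case both co-cultured libraries lay above both lone ones, as 2 values against 2, and the share of all genes doing so was not counted.

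Saa3 was at 59.0 and 27.8 CPM alone and 68.4 and 50.5 CPM in co-culture (0.50 ± 0.16, adjusted p = 0.0529), and these ranges overlapped. With no filter on low counts this difference was called (adjusted p = 0.000711), which made 5 of 6. Lcn2, already at 436 and 476 CPM alone, was at 661 and 439 CPM (0.22 ± 0.17, adjusted p = 0.401). In tumor cells 4 of 6 genes were called higher, where 10.8% of all genes were, and none of them was called lower, where 11.5% of all genes were. The median log2 fold change of the 6 was 2.36, against 0.01 over all genes tested. NF RNA in the tumor libraries was estimated the same way from the fibroblast markers, less their sum in the same line grown alone, at 0.344% and 0.192%. At these shares it would carry under 1 CPM of any of these genes. In 13-MCB-17 alone 67.7 of the subtracted 71.7 CPM were Pdgfra, which was at 49.9 CPM in co-culture, so this share can be too low. Between lines, Saa3 (-0.83 ± 0.16, adjusted p = 0.0102) and Steap4 (-2.01 ± 0.43, adjusted p = 0.0173) were lower in 10-SJK-221 than in 13-MCB-17, so 2 of 6 were called, where 14.5% of all genes were.

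Set side by side within the co-culture gels, the cell that held most of a transcript differed by gene. Saa3 was 7.75-fold and 11.8-fold higher in CD26+ NFs than in tumor cells in gels 4 and 5, whereas Lcn2 was 3.82-fold and 3.13-fold and Cp 3.56-fold and 2.38-fold higher in tumor cells than in CD26+ NFs. Relative to CD26+ NFs of gels 4 and 5, tumor cells held 2.23-fold and 0.974-fold of the Hp level, 0.865-fold and 0.697-fold of the Il13ra2 level and 0.756-fold and 0.0902-fold of the Steap4 level. In CD26- NFs all 6 genes but Steap4 in gel 5 (2.76 against 2.79 CPM in tumor cells) were lower by over 2-fold than in tumor cells of the same gel.

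With both subsets averaged on the log2 scale, 5 of 6 genes differed between NFs and tumor cells in co-culture gels, where 51.8% of all genes did, with 1 higher in NFs (Saa3, 1.26 ± 0.31, adjusted p = 0.00962) and 4 lower. Leaving out either gel left 3 of 6, with Saa3 and Il13ra2 no longer called, and without gel 4 Steap4 turned from -0.10 to 1.98. Between NFs and tumor cells grown alone all 6 differed, where 55.5% of all genes did. There 5 were higher in NFs, from 0.67 ± 0.24 for Cp (adjusted p = 0.0404, and 0.162 without gel 2) to 6.02 ± 0.80 for Steap4 (adjusted p = 0.000345), and Lcn2 was lower by a log2 fold change of -7.77 ± 0.32 (adjusted p = 5.88e-07).

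Levels per kilobase of exon changed order with culture. The length used was the union of the exons of every annotated transcript, 9566 bases for Cp and 2606 for Saa3. Close ranks between genes therefore depend on this choice of length. In CD26+ NFs alone the order was Saa3 (156 CPM per kb), Steap4 (45.2), Hp (26.6), Cp (13.7), Il13ra2 (13.1) and Lcn2 (2.73). In co-cultured CD26+ NFs it was Saa3 (216), Lcn2 (59.7), Cp (15.9), Steap4 (8.44), Il13ra2 (6.13) and Hp (4.48). Lcn2 thus went from the last place to the one after Saa3, and in co-culture the 2 libraries of each gene did not overlap with those of its neighbours in this order. In co-cultured tumor cells the order was Lcn2 (210), Cp (47.5), Saa3 (22.8), Hp (7.20), Il13ra2 and Steap4 (3.11), with overlapping libraries among the last 3.

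By group, Saa3 was highest in co-cultured CD26+ NFs (563 ± 46.3 CPM, SD, n = 2), then in CD26+ NFs alone (407), and the means of the tumor and CD26- groups followed between 27.5 and 59.5 CPM, with tumor libraries grown alone overlapping each of the other groups in that span. Lcn2 was highest in co-cultured tumor cells (550 ± 157) and tumor cells alone (456 ± 27.8), which overlapped, and lowest in CD26- NFs alone (0.497). Cp was highest in co-cultured tumor cells (454 ± 141), ahead of co-cultured CD26+ NFs (152 ± 4.86) and CD26+ NFs alone (131). For Hp, Steap4 and Il13ra2 the highest group was CD26+ NFs alone, with 1 library each.

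Of 31 other acute-phase genes, 15 passed the filter for the comparison of subsets. Of these 2 were called higher in CD26+ NFs, where 3.93% of all genes were, and none was called lower, where 3.6% were. The log2 fold change was above 0 in 13 of the 15, and its median was 0.69 against 0.00 over all genes. These were Mt1 (3.78 ± 0.19, adjusted p = 4.11e-05) and Mt2 (0.89 ± 0.18, adjusted p = 0.0199), which encode metallothioneins that bind zinc and copper. Mt1 was at 1073, 2770 and 3644 CPM in CD26+ NFs and at 84.1, 214 and 170 CPM in CD26- NFs. In the paired fit with the gel as a block, 5 of this list were called instead of 2. Without gel 5 only 1 gene of this list, and 0 of each list described further on, was called between subsets by edgeR. Serpina3n, a protease inhibitor (0.50 ± 0.14, adjusted p = 0.0582), and C3, the central complement protein (0.59 ± 0.23, adjusted p = 0.144), did not pass. Saa1, whose reads can be confused with those of its close copy Saa2, was at or under 3.09 CPM in NFs.

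With co-culture 7 of 15 were called higher over both subsets and 6 lower, where 25.9% and 22.9% of all genes were, with a median of -0.43 against 0.02 over all genes. Without gel 4 or gel 5, 4 were called higher in place of 7. Those that fell included C4b, a complement protein (-5.55 ± 0.28, adjusted p = 8.39e-07), Lbp, which binds bacterial lipopolysaccharide (-4.56 ± 0.21, adjusted p = 5.27e-07), the pattern-recognition protein Ptx3 (-3.68 ± 0.30) and Serpina3n (-2.13 ± 0.14). Lbp went from 534 CPM to 16.1 and 21.4 CPM in CD26+ NFs and from 445 to 16.6 and 26.0 CPM in CD26- NFs. Those that rose included Cd14, the co-receptor that Lbp serves (1.82 ± 0.27, adjusted p = 0.000434), Hpx, the haem-binding hemopexin (1.56 ± 0.31, adjusted p = 0.00265), Mt1 (1.43 ± 0.19, adjusted p = 0.000257) and Mt2.

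In tumor cells 4 of the 16 tested were called higher and 1 lower, where 10.8% and 11.5% of all genes were, with a median of 0.10 against 0.01. Lbp rose from 3.64 and 10.1 CPM to 74.4 and 49.97 CPM (3.21 ± 0.38, adjusted p = 0.000877), and Saa1 (1.89 ± 0.28, adjusted p = 0.00249) and Saa2 (3.30 ± 0.62, adjusted p = 0.00653) rose as well. C3 fell by 1.26 ± 0.15 on the log2 scale (adjusted p = 0.000877) but stayed at 1506 and 1537 CPM.

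**Figure D5:**
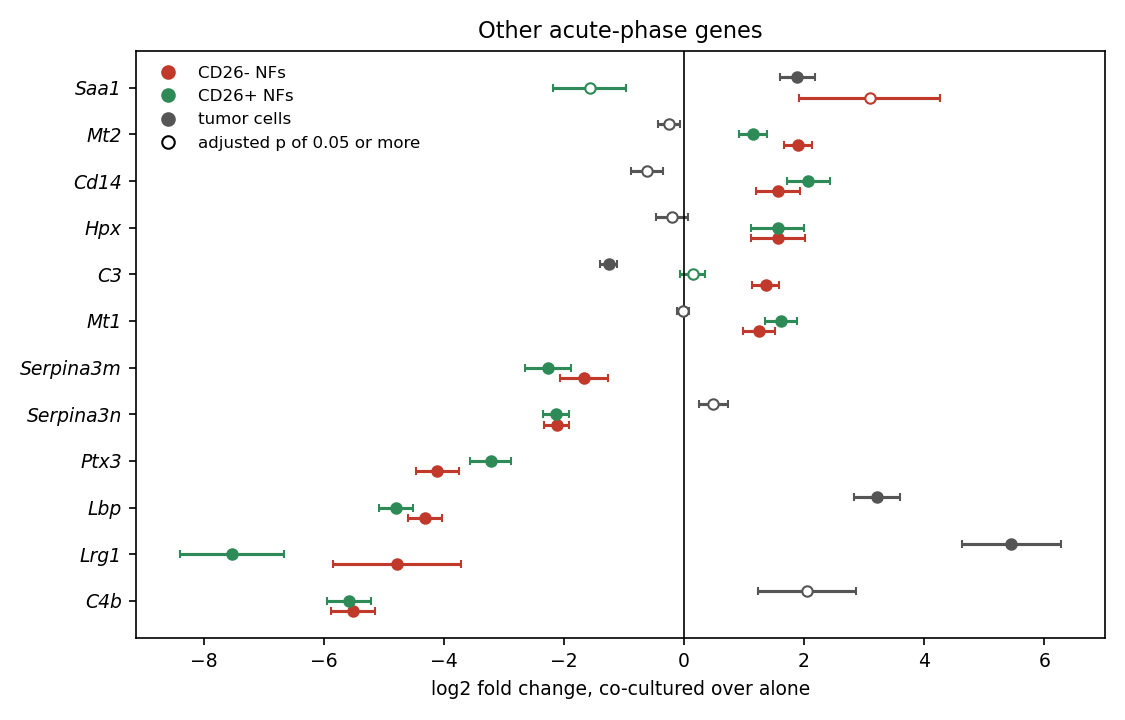
Log2 fold change of co-cultured over lone cells (horizontal, ± SE from the edgeR fit) for the 12 other acute-phase genes with a mean of at least 1 CPM over the NF libraries, in CD26- NFs (red), CD26+ NFs (green) and tumor cells (grey). Open points did not pass an adjusted p of 0.05, and genes without a grey point were too low to test in tumor cells. C4b, Lbp and Ptx3 lay below 0 in both NF subsets, and Lbp lay at 3.21 in tumor cells.

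Of 8 inducing cytokines tested in co-cultured NFs, 5 were called higher, against 25.9% of all genes, and 2 lower, against 22.9%, with a median of 2.02 against 0.02 over all genes. Il11 (4.84 ± 0.25, adjusted p = 9.36e-07) and Lif (3.23 ± 0.17, adjusted p = 1.04e-06), both of the interleukin-6 family, reached 371 to 1013 CPM and 448 to 657 CPM, of which tumor RNA would carry no more than 2.98%. Tnf rose (4.57 ± 0.57, adjusted p = 0.000171) and so did Il6 (0.82 ± 0.16, adjusted p = 0.00243). Il1a had no count in NFs alone and was at 17.3 to 21.6 CPM in co-culture, at least 93.7-fold higher in CD26+ and 105-fold higher in CD26- NFs against 3 counts in the lone library, but the estimated tumor RNA would account for 10.1 to 25.2 CPM. Il1rn, the antagonist of the interleukin-1 receptor, fell by 5.02 ± 0.17 (adjusted p = 8.69e-08), and Il33 by 0.82 ± 0.12. Between subsets, Lif (-0.53 ± 0.14, adjusted p = 0.0479) and Il11 (-1.14 ± 0.19, adjusted p = 0.0103) were lower in CD26+ than in CD26- NFs. They were the 2 of 8 called, where 3.6% of all genes were called lower. This count was 1 without gel 4 and 1 with the estimated tumor RNA subtracted.

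Of the 15 receptors for these cytokines, 10 were called lower in co-cultured NFs, against 22.9% of all genes, and 2 higher, against 25.9% (median -0.72 against 0.02). Il6st, the signalling chain shared by the interleukin-6 family, fell by 2.63 ± 0.19 (adjusted p = 6.00e-06) and Il1r1 by 2.17 ± 0.13 (adjusted p = 1.94e-06). Both, with Osmr, were the 3 of 15 called between subsets, and all 3 were lower in CD26+ NFs (-0.78 ± 0.19, -0.64 ± 0.13 and -0.63 ± 0.15), where 3.6% of all genes were. This count was 1 without gel 1 and 2 with the estimated tumor RNA subtracted. In tumor cells 3 of 13 tested were called higher and 2 lower, where 10.8% and 11.5% of all genes were. Osmr (2.11 ± 0.16, adjusted p = 0.000112) and Il13ra1 (1.86 ± 0.13, adjusted p = 8.97e-05) rose there, and Il1rl1 (-1.51 ± 0.25, adjusted p = 0.00352) and Il17rc (-0.92 ± 0.12, adjusted p = 0.00137) fell. Il13ra1, the signalling partner of Il4ra and relative of Il13ra2, did not pass in co-cultured NFs (0.18 ± 0.17, adjusted p = 0.386), and Il4ra fell there by 1.48 ± 0.14 (adjusted p = 2.65e-05).

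Among the transcription factors and feedback regulators, 10 of 16 fell with co-culture in NFs, against 22.9% of all genes (median -0.68 against 0.02). The 4 of 16 that rose, 2 without gel 5, were near the 25.9% of all genes, and were Zc3h12a (0.91 ± 0.14), Relb (0.72 ± 0.14), Nfkb2 (0.50 ± 0.13) and Rela (0.40 ± 0.13). Socs3, the feedback inhibitor of STAT3 signalling, fell by 1.25 ± 0.14 (adjusted p = 6.55e-05), Tnfaip3, a feedback inhibitor of NF-kB, by 1.14 ± 0.14, Cebpa by 1.11 ± 0.15, Nfkbiz by 0.99 ± 0.15, Cebpd by 0.81 ± 0.24, Cebpb by 0.69 ± 0.14 and Stat3 by 0.68 ± 0.13. Between subsets 1 of 16 was called higher in CD26+ NFs, where 3.93% of all genes were. It was Bcl3 (0.58 ± 0.15, adjusted p = 0.0461), a call not made with the estimated tumor RNA subtracted. Cebpd (0.88 ± 0.24, adjusted p = 0.0550) and Cebpb (0.43 ± 0.14, adjusted p = 0.0902) did not pass.

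Of the receptors, partners and relatives of the 6 genes, 7 of 16 rose and 2 fell in co-cultured NFs, where 25.9% and 22.9% of all genes did (median 0.39 against 0.02). Mmp9, a protease that forms a complex with lipocalin 2, rose by 8.36 ± 0.26 (adjusted p = 5.47e-08), from 12.9 and 18.6 CPM to between 3880 and 6332 CPM. Hmox1, which breaks down haem (1.26 ± 0.19, adjusted p = 0.000558), the iron exporter Slc40a1 (1.39 ± 0.15, adjusted p = 5.60e-05), the transferrin receptor Tfrc (1.87 ± 0.15) and the ceruloplasmin homologue Heph (1.95 ± 0.24) rose as well. The estimated tumor RNA would carry 16.3% to 38.6% of the Tfrc level in co-cultured NFs. Of the other Steap genes, Steap3 fell by 3.69 ± 0.16 (adjusted p = 2.77e-07), and Steap1 (-0.37 ± 0.22, adjusted p = 0.184) and Steap2 (0.24 ± 0.15, adjusted p = 0.198) did not pass. Slc22a17, a lipocalin 2 receptor, did not pass either (-0.29 ± 0.14, adjusted p = 0.115). Between subsets 3 of 16 were called, where 7.53% of all genes were in either direction. Slc40a1 was higher in CD26+ NFs (1.40 ± 0.13, adjusted p = 0.00121, 2.78-fold to 3.11-fold in each gel) and Heph and Tmem219 were lower. The count of lower genes was 1 without gel 1 and 1 with the estimated tumor RNA subtracted.

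None of the genes of these 5 lists was called for a difference in response between subsets by edgeR, with 11 of the 74 tested at an unadjusted p under 0.05. The share of all genes at that unadjusted threshold was not counted, so this number has no background to be set against. Under the alternatives, DESeq2 included, at most 1 gene of any list was called in either direction.

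Pattern likeness over the 10 libraries was measured as the root mean square difference of centred log2 levels, among genes with a mean of at least 5 CPM. Hp and Il13ra2 were each other's nearest gene, at 0.57. The gene nearest to Saa3 was Pcdh9, a protocadherin, at 0.43, followed by Cd24a (0.77) and H4c9 (0.80). For Lcn2 they were Igf2bp1 (0.82), Acap1 (0.86) and Scin (0.88), for Cp Porcn (0.84), Mkx (0.86) and Nr2f1 (0.91), and for Steap4 Rspo3 (0.83), Gstt1 (0.86) and Plppr3 (0.87). After each other, Hp was nearest to Dnm3 (0.98) and Chst2 (1.00), and Il13ra2 to Gm21781 (0.79) and Dnm3 (0.84). Lcn2 was the most distant from the other 5, at 2.61 to 4.44. Over the 6 NF libraries alone, the gene nearest to Lcn2 was Bmp2 (0.51), which was at 0.248 and 1.75 CPM in NFs alone, 12.4 to 75.0 CPM in co-cultured NFs and at most 0.0566 CPM in tumor cells. These distances include the subset contrast on which the 6 genes were chosen, and are a description.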

How the data were processed

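RNA was measured by sequencing in 10 sorted libraries from 5 gels. The read counts per gene were deposited by the authors without normalization. Per the submitters' processing notes, HISAT2 2.2.1 and GRCm38 were used. Which program counted the reads, whether it used strand and with which annotation is not given in the sources used here, so reads of close copies (Saa1 and Saa2, Serpina3n and Serpina3m) and of overlapping genes are uncertain. The 1 row without a gene ID held 0 counts. The full genotype of the tumor model is not reported here. The authors' analysis used DESeq2 with an FDR and a log2 fold change criterion.

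Genes were filtered by edgeR's filterByExpr, scaled by TMM and tested over all genes by edgeR's two-sided quasi-likelihood test (edgeR 4.0.16, limma 3.58.1, R 4.3.3). Genes were called at a Benjamini-Hochberg adjusted p under 0.05. Subsets were compared over 3 gels, NFs grown with and without tumor cells over both subsets and within each, and the remaining comparisons as named in the report. The gel number, given in the labels, marks cells grown together, so a fit with the gel as a block was an alternative where gel is not nested in culture. The deviations of gel 5 from gel 4 correlated at 0.0881 between CD26- and CD26+ NFs, 0.0900 between CD26- NFs and tumor cells and 0.0624 between CD26+ NFs and tumor cells, over 17048 genes. The other alternatives were DESeq2 1.42.0, other filters, the study's log2 fold change criterion of 2, each gel left out in turn and, chosen after seeing the data, subtraction of the estimated tumor RNA. The fits were tested on simulated data.

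Library totals of 14142334 to 18408940 set the limit that 3 counts give at 0.163 to 0.212 CPM. Exact binomial 95% intervals cover counting error only. Pattern likeness used log2(CPM + 0.5) and genes with a mean of at least 5 CPM (Python 3.11.15). Levels per kb used the union of GENCODE M21 exons. The 6 genes and all gene lists were chosen with earlier results of these data known. Named from each list were at most 4 called genes of largest change per direction and comparison, with a mean of at least 1 CPM over the libraries compared, and a set of genes given whatever their p (such as Saa1, C3, Serpina3n, Il6, Lif, Il13ra1, Steap1, Mmp9, Socs3 and Stat3). For each of the 6 genes, the 3 of most like pattern were named.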

Additional observations from a re-analysis of the deposited data

Results flagged for a closer look

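The response of Cp to co-culture differed between the subsets, by 1.69 ± 0.31 on the log2 scale (CD26+ minus CD26- NFs, adjusted p = 0.0340 by the interaction term in edgeR). Cp was 1.19-fold and 1.14-fold of the lone level in CD26+ NFs of gels 4 and 5, and 3.12-fold and 2.60-fold lower than alone in CD26- NFs of these gels. The estimated tumor RNA would carry 73.6% and 41.2% of the Cp level in these CD26- libraries and 14.2% and 14.9% in the CD26+ libraries. The call was lost with this RNA subtracted (2.64, adjusted p = 0.146), with no filter on low counts (adjusted p = 0.121), at 1 CPM in 2 libraries (0.0506) and with a log2 fold change over 2 required. Exposure of CD26+ NFs to adeno-Cre cannot be told apart from the subset. Each lone arm was 1 library, and Cp had been picked by the subset difference in these same libraries.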

How the results depend on the processing

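Of the 414 values of single genes under the alternatives, 385 neither gained nor lost a call or, for the untested subset difference, moved by less than the SD between gels. A further 22 lost a call, 5 gained one, 1 subset difference moved by more than that SD and 1 reversed. The subset difference that moved was that of Lcn2, at 4.83 with the estimated tumor RNA subtracted. That alternative also moved called values that stayed called in CD26- NFs, Lcn2 from 5.29 to 3.01 and Cp from -1.43 to -2.55. Values that were not called changed sign for Lcn2 (-0.80 to 1.25) and Hp (-0.25 to 0.27) in the difference in response and for Saa3 between gels 5 and 4 (to 0.02) under it, and for Steap4 in NFs against tumor cells of co-culture gels with the block (to 0.10). The one that reversed was Steap4 in NFs against tumor cells of co-culture gels, at -0.10 over both gels, -1.16 without gel 5 and 1.98 without gel 4.

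With the study's criterion of a log2 fold change over 2 added, the genes called were 192 in place of 1130 between subsets, 2047 with co-culture over both subsets, 1857 in CD26- NFs and 2161 in CD26+ NFs, 6 in place of 304 between gels 5 and 4, 418 in place of 2942 in tumor cells, 278 in place of 1910 between lines, 4000 in place of 8839 between NFs and tumor cells in co-culture, and 4899 in place of 9458 when grown alone. Of the 6 genes, this left 3 in place of 4 with co-culture over both subsets and in CD26+ NFs, 3 in place of 6 in CD26- NFs (Il13ra2 lost its call in each of these), 0 for the difference in response, 1 between lines and 3 between NFs and tumor cells in co-culture.

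For the difference in response, where 59 genes and 1 of the 6 were called, the counts were 18 and 0 with no filter, 38 and 0 at 1 CPM in 2 libraries, 98 and 2 with DESeq2, 395 and 3 in the paired fit with the gel as a block, and 31 and 0 with the tumor RNA subtracted. The paired fit has 1 lone gel and takes its error from the 2 co-culture gels, so its higher counts are not stronger evidence. DESeq2 called 38 genes between gels 5 and 4, 1568 in tumor cells and 945 between lines. Without a filter, 2917 genes were called between lines, and with the tumor RNA subtracted 168 were called between gels 5 and 4.

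Leaving out 1 gel at a time, 17 to 1299 genes were called between subsets, the lowest without gel 5, and 2614 to 3018 genes and 3 of the 6 between NFs and tumor cells in co-culture. The causes were not tested. For the culture contrasts within a subset, the difference in response, the tumor cell contrasts and gel 5 against gel 4, no residual degrees of freedom remain without a gel, so the folds of each gel stand in the report. Away from the difference in response and the other acute-phase genes between subsets, the block moved no count of calls among the 6 genes. With 1 library of NFs grown alone per subset, depth is not the limit for Saa3, but Hp and Lcn2 rest on 7 and 8 counts in their lowest CD26- libraries.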
